A study of Rattus norvegicus with 2 samples.

Results

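The genes of the NMDA and AMPA receptor subunits were examined in the hypothalamus of female Sprague Dawley rats before and at puberty. They were taken by gene name, with earlier results of these data known, and comprised 10 genes (Grin1, Grin2a, Grin2b, Grin2c, Grin2d, Grin3a, Gria1, Gria2, Gria3 and Gria4) of the 22777 genes in the mRNA table, with 15 of its 26324 transcripts. The prepubertal group was on postnatal day 25 and the pubertal group, in its first estrus, on postnatal day 35. No treatment is named for either group, and the methods give 3 rats per stage. The tables hold 1 column per stage and it is not stated how the rats were combined, so each stage is 1 library here, the spread between rats is unknown, and no difference below has a replicate check or a p-value.

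Glutamate is the main excitatory transmitter of the brain, and NMDA and AMPA receptors are ion channels that it opens. AMPA receptors, built from GluA1 to GluA4 (Gria1 to Gria4), carry most of the fast synaptic current. NMDA receptors let calcium in once the membrane is already depolarised, and join the obligatory subunit GluN1 (Grin1) with GluN2 (Grin2a to Grin2d) or GluN3 subunits (Grin3a). In the hypothalamus, glutamate acting through NMDA receptors is a known stimulus to the release of gonadotropin releasing hormone, the hormone that starts the reproductive axis. Rats treated with NMDA receptor agonists before puberty can mature early.

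In the deposited values all 6 NMDA receptor genes were lower in the pubertal library (3 of 6 after scaling to Actb), whereas the 4 AMPA receptor genes lay closer to their prepubertal level. Summed over the NMDA receptor genes, FPKM (the number of fragments corrected for transcript length and library size) went from 131 to 96.1. Summed over the AMPA receptor genes it went from 240.4 to 229. The NMDA sum was thus 0.545 times the AMPA sum before puberty and 0.420 times the AMPA sum at puberty. The later ratio was 0.770 times the earlier one (counting interval 0.742 to 0.800), and a scaling of the libraries cannot alter it.

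The number of fragments behind an FPKM was read from the lowest steps of the values, since transcripts with few fragments take whole multiples of the value of 1 fragment. At 1500 to 7000 nt, 97.9% of 582 transcripts with up to 5 fragments of the prepubertal library came out whole within 0.1 fragment, as did 97.4% of 680 of the pubertal one. The prepubertal library was 1.28 times as deep. The 10 genes rested on between 349 and 13481 fragments before puberty and on between 223 and 10219 at puberty. The intervals of single-gene ratios and of levels are exact 95% intervals from these fragment numbers. Those of ratios between genes, of shares and of differences between levels are approximate 95% intervals from propagated counting errors. All of these intervals cover counting error only and say nothing of the spread between rats.

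The direction of a single gene depends on how the libraries are scaled. Actb, the reference gene of the study's quantitative PCR, went from 763 to 576 FPKM, and scaling to equal Actb multiplies each pubertal value by 1.32. This moved the median log2 ratio of all genes from -0.01 to 0.36 and, with it, the median of the 10 genes from -0.24 to 0.11 and that of the NMDA receptor genes from -0.38 to 0.00. Relative to the median of all genes, the NMDA receptor genes stood at -0.37 in the deposited FPKM and at -0.36 after this scaling, and all 6 lay below that median under both. A common factor moves these genes and the median of all genes almost alike, so this relative position could hardly change. Higher and lower refer below to the deposited FPKM, and so to a level relative to the other genes of the library.

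**Figure D1:**
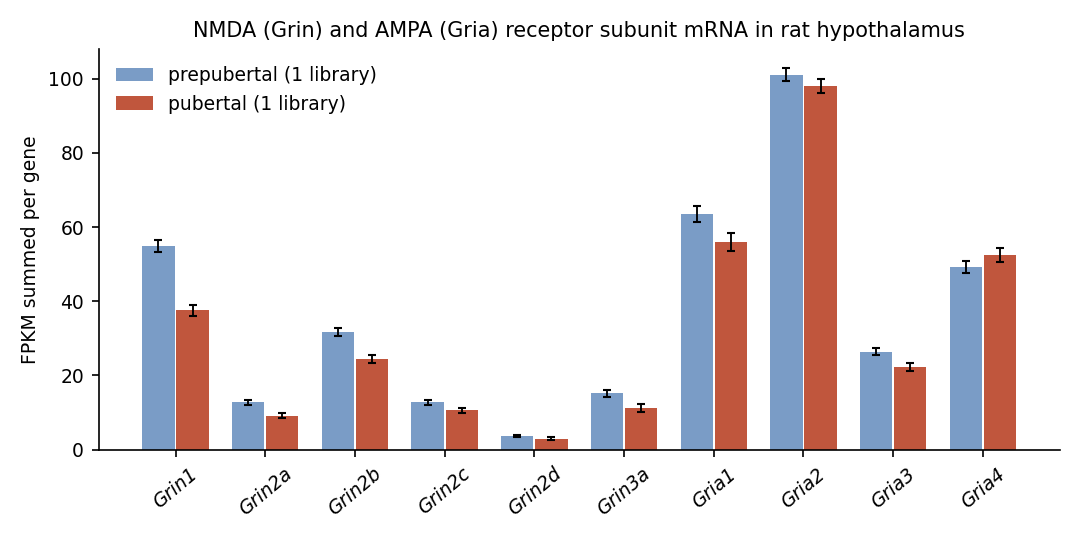
Bars give the FPKM summed per gene (vertical axis, from 0) for each subunit in the prepubertal (blue) and pubertal (red) library, with 95% counting error. Gria2 was highest and Grin2d lowest in both libraries, and Gria4 alone had the higher bar at puberty in these unscaled values.

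Grin1 (ENSRNOG00000011726) encodes GluN1, without which no NMDA receptor forms. It had 54.96 FPKM before puberty, from 4434 fragments, and 37.6 FPKM at puberty, from 2369 fragments. The pubertal level was 0.684 times the prepubertal level (0.650 to 0.719). This was the furthest from 1 among the 10 genes, and 3.10% of the 13804 genes with a mean FPKM of at least 1 had a lower log2 ratio. On the scale used for lists, log2 of (pubertal FPKM + 1) over (prepubertal FPKM + 1), Grin1 stood at -0.54.

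The GluN2 subunits set how long the channel stays open and how strongly magnesium blocks it. Grin2b (ENSRNOG00000008766), the GluN2 gene that predominates early in life, had 31.7 FPKM before and 24.5 FPKM at puberty, a ratio of 0.773 (0.731 to 0.817). Grin2a (ENSRNOG00000033942), which gains ground as forebrain synapses mature, had 12.8 and 9.17 FPKM, a ratio of 0.719 (0.650 to 0.794). Grin2c (ENSRNOG00000003280), known for its expression in cerebellar granule cells and in glia, had 12.8 and 10.6 FPKM, a ratio of 0.828 (0.753 to 0.911). All of these intervals lay below 1.

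Grin2d (ENSRNOG00000021063), a subunit of the diencephalon and brainstem and of many interneurons, was the lowest of the family at 3.68 and 3.01 FPKM. Its ratio of 0.818 had the widest interval, 0.688 to 0.970. Grin3a (ENSRNOG00000005723), whose product lowers the calcium permeability of the receptor and is most abundant in the first weeks after birth, had 15.2 and 11.3 FPKM, a ratio of 0.742 (0.665 to 0.826). Relative to Grin1, Grin3a stood at 0.276 before puberty and 0.299 at puberty, a change of 1.08 times whose interval of 0.964 to 1.22 includes 1.

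Although each GluN2 gene was lower at puberty, their proportions were close in the libraries. Grin2b made up 52.1% of the GluN2 FPKM before puberty and 51.9% at puberty, a difference of -0.21 percentage points with a counting standard error of 1.07. Grin2a held 20.9% and 19.4%, a difference of -1.53 points (standard error 0.888), and Grin2c 20.9% and 22.4%, a difference of 1.42 points (0.917). Grin2d held 6.05% and 6.37%. The 95% interval of each of these differences, from its counting standard error, included 0. The ratio of Grin2a to Grin2b, which is often followed through development because GluN2A replaces part of GluN2B at maturing synapses, was 0.402 before puberty and 0.374 at puberty. The later value was 0.931 times the earlier one (0.831 to 1.04), so no shift towards Grin2a was detectable at this depth. Grin1 was lower than the GluN2 genes in proportion as well, at 0.902 times their sum before puberty and 0.795 times at puberty, a change of 0.881 times (0.826 to 0.940).

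**Figure D2:**
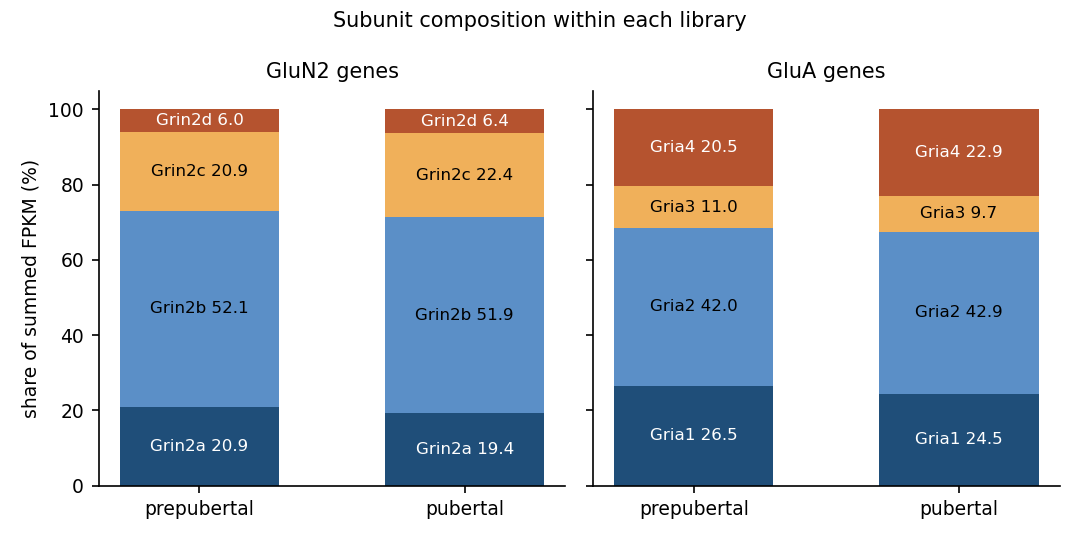
Stacked bars give the share of each gene (vertical axis, percent) in the summed FPKM of the GluN2 genes (left) and of the GluA genes (right) in each library. The Grin2a and Grin2c shares differ by -1.53 and 1.42 points between the libraries, and in the GluA panel the Gria4 share is 2.44 points larger at puberty.

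Among the AMPA receptor genes, Gria2 (ENSRNOG00000028589) encodes GluA2, the subunit whose edited form makes the channel impermeable to calcium. It was the most abundant of all 10 genes, with 101 FPKM before and 98.1 FPKM at puberty. Its ratio was 0.970 (0.946 to 0.996), and its log2 ratio of -0.04 became 0.028 when the libraries were scaled to pan-neuronal markers, 0.080 when centred among genes of like length, 0.13 when its transcript with the highest FPKM was taken alone and 0.36 when scaled to Actb. No direction is therefore given for Gria2.

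Gria1 (ENSRNOG00000045816), whose product is delivered to synapses during potentiation, had 63.6 and 55.97 FPKM, a ratio of 0.880 (0.833 to 0.928). Gria3 (ENSRNOG00000007682) had 26.5 and 22.3 FPKM, a ratio of 0.842 (0.792 to 0.895). Gria4 (ENSRNOG00000006957), known for fast kinetics and for its place in brainstem, thalamic and parvalbumin neurons, had 49.3 and 52.5 FPKM. Its ratio of 1.07 (1.02 to 1.12) made it the 1 member that was higher at puberty in the deposited FPKM. Every scaling tried raised the pubertal values, so none of them could have reversed this direction. Within the family, Gria4 held 20.5% of the GluA FPKM before puberty and 22.9% at puberty (difference 2.44 points, standard error 0.452). Gria1 held 26.5% and 24.5% (difference -2.00 points, 0.557), Gria3 11.0% and 9.74% (-1.27 points, 0.304) and Gria2 42.0% and 42.9% (0.83 points, 0.505). The differences of Gria4, Gria1 and Gria3 exceeded their 95% counting error. With only the transcript of highest FPKM per gene, the difference was -3.18 points for Gria1 and 2.99 points for Gria2.

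Upstream sequences are shown for Grin1 and Gria4, the genes with the lowest and the highest ratio. They come from RefSeq (build GRCr8, while the labels name Rnor_5.0 for these data) and cover the 250 bases before the annotated start, 5′ to 3′ on the gene's strand, with each CG dinucleotide, the site of DNA methylation, in capitals.
Grin1, chr3:28528755-28529004, minus strand: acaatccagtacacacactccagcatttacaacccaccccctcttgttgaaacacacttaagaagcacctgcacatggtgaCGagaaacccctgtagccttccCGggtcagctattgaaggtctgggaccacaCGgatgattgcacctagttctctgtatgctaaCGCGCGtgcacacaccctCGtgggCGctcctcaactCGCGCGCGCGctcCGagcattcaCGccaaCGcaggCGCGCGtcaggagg
Gria4, chr8:10319882-10320131, minus strand: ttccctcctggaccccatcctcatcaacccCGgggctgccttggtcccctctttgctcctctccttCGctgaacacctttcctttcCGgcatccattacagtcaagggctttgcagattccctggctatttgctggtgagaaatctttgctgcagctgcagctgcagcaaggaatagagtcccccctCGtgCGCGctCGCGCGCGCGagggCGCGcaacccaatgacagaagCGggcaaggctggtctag
The window of Grin1 held 19 CG and that of Gria4 held 14. At least as many were found in 18.4% and 27.6% of the 33465 windows of this length in the table, whose median was 5. Windows were taken only for receptor genes with a single distinct window, which gave 5 of the 10 genes. Those of Grin3a, Grin2d and Grin2c held 16, 9 and 8 CG. The GC box GGGCGG, searched on both strands, was found in 0 of these 5 windows and in 30.5% of all windows, which were not limited to genes with a single window. Both printed windows thus held more CG than the median window, which describes the letters and no more.

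The order of the levels was nearly the same at both stages. Before puberty it ran from Gria2 through Gria1, Grin1, Gria4, Grin2b, Gria3, Grin3a, Grin2c and Grin2a to Grin2d. At puberty Grin1 and Gria4 had changed places, with 37.6 FPKM (36.1 to 39.1) and 52.5 FPKM (50.7 to 54.3). Neighbours in this order were compared by the 95% counting interval of their difference. Before puberty Grin2c and Grin2a did not differ beyond counting error, with a difference of 0.0099 FPKM (-1.06 to 1.08). At puberty Grin3a and Grin2c did not either, with a difference of 0.679 FPKM (-0.56 to 1.91). Grin2c then lay above Grin2a by 1.40 FPKM (0.339 to 2.47) and Gria1 above Gria4 by 3.48 FPKM (0.560 to 6.404). All other neighbours differed beyond counting error in both libraries. Against all 13804 genes, Gria2 lay at the 91.6th percentile of level before puberty and Grin2d at the 17.4th.

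Set against the log2 ratios of all genes, the subunits ranged from percentile 3.10 (Grin1) to percentile 67.2 (Gria4). Of the 10 genes, 0 were lower by at least 1.5-fold in FPKM + 1, against 2.41% of the 13804 genes, and 0 were higher by as much, against 1.77%. On the same scale, 4 were lower by at least 20% (Grin1, Grin2a, Grin2b and Grin3a), against 11.0% of all genes, and 0 were higher by at least 25%, against 7.69%. By any amount, 9 of 10 were lower in the deposited FPKM, Gria2 among them, against 51.0% of all genes. Without Gria2, 8 were lower with scaling to pan-neuronal markers, with the transcript of highest FPKM or with centring by length, and 3 of 10 were lower with scaling to Actb. The counting interval lay below 1 for 9 genes, against 23.5% of all genes, and above 1 for 1 gene, against 19.5%. The median log2 ratio was -0.24 for the 10 genes, -0.38 for the NMDA and -0.11 for the AMPA receptor genes, and -0.01 for all genes.

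**Figure D3:**
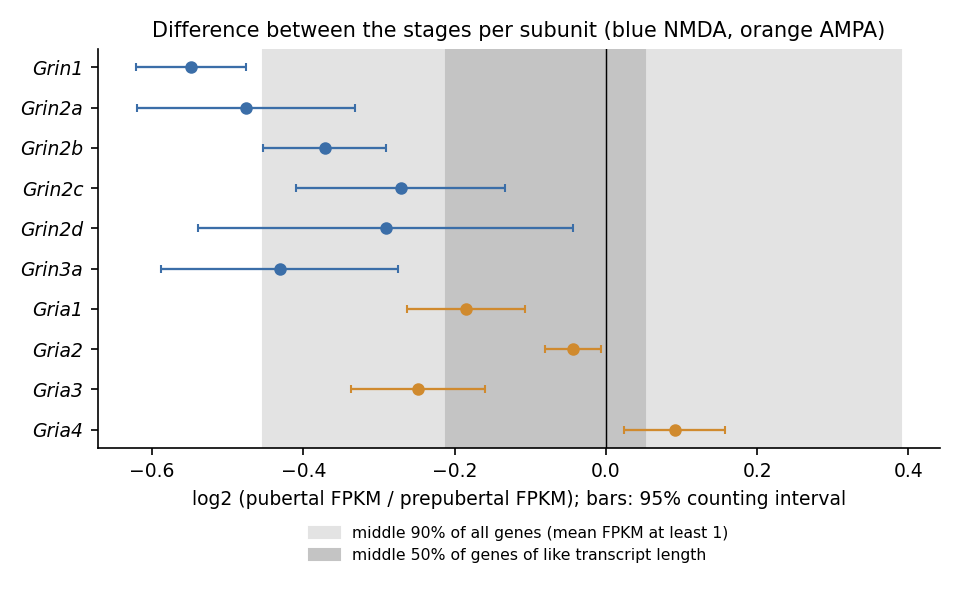
Points give log2 of pubertal over prepubertal FPKM (horizontal axis) per subunit, with the 95% counting interval, blue for NMDA and orange for AMPA receptor genes. The light band holds the middle 90% of all genes and the dark band the middle 50% of genes of like transcript length, both as log2 ratios of FPKM + 1, and in these unscaled values Grin1 lies left of the light band, Grin2a at its left edge and Gria4 right of 0.

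The length of a transcript moved with the ratio in these libraries. Among the 13804 genes, the median log2 ratio went from 0.08 in the class with the shortest transcripts (168 to 780 nt) to -0.12 in the class with the longest (4502 to 22077 nt). The longest transcripts of the 10 genes measured 2740 to 6680 nt. Among the 4064 genes in this range the median was -0.08, 64.8% were lower at puberty, 12.5% were lower by at least 20%, 2.19% were higher by at least 25%, 1.87% were lower by at least 1.5-fold and 0.320% were higher by as much. The counting interval lay below 1 for 38.6% of these genes and above 1 for 13.9%. Of them, 2.66% had a lower log2 ratio than Grin1, 5.07% a lower one than Grin2a, 6.91% than Grin3a and 9.25% than Grin2b. Gria4 lay at percentile 81.1 of the same genes. After centring within 10 classes of length, Grin1 stood at -0.46, the median of the NMDA receptor genes at -0.29 and that of the AMPA receptor genes at -0.02.

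**Figure D4:**
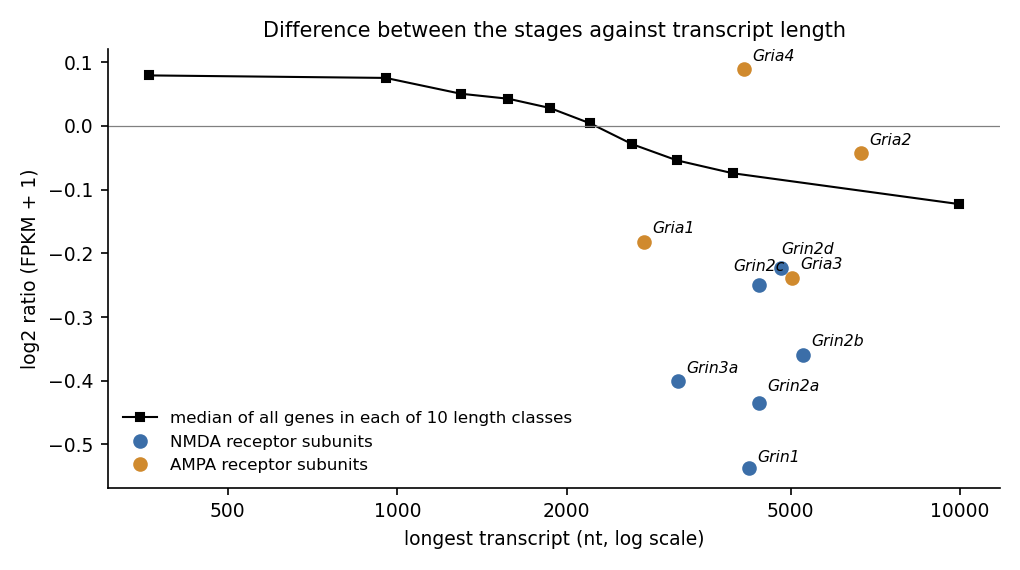
Each circle is a subunit, placed by its longest transcript (horizontal axis, nt, log scale) and its log2 ratio of FPKM + 1 (vertical axis). Black squares give the median of all genes in 10 classes of length, from 0.08 to -0.12, and the 6 NMDA receptor genes (blue) lie below that line.

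Of the 10 genes, 4 were listed with more than 1 transcript. Gria2 had a pair of transcripts of 6680 nt each. ENSRNOT00000039587 had 48.6 FPKM before puberty and 53.4 at puberty, while ENSRNOT00000067113 had 52.4 and 44.7. The share of the former in the gene was 48.1% and 54.4%, so that the order of the pair was exchanged while the sum stayed close. Gria1 and Gria3 were also listed as pairs of equal length, 2740 and 5030 nt. The major Gria1 transcript, ENSRNOT00000071615, had 47.7 and 42.4 FPKM and the minor one, ENSRNOT00000073148, 15.9 and 13.6 FPKM. The major Gria3 transcript, ENSRNOT00000010367, held 67.8% of the gene before puberty and 66.8% at puberty. GluA subunits exist in a flip and a flop form, which come from mutually exclusive exons of the same size. The tables do not state which transcript carries which form. For Grin1, ENSRNOT00000037725 was listed at 0 in both libraries, ENSRNOT00000049297 had 34.5 and 22.96 FPKM, and ENSRNOT00000044246 had 20.5 and 14.6 FPKM. The last held 37.3% of Grin1 before puberty and 38.9% at puberty. The split of fragments between transcripts that share most of their sequence is an estimate, and its error is not given.

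The other glutamate receptor lists had medians nearer to 0 than the 10 genes. Of the 7 kainate and delta receptor genes, 0 were past 1.5-fold, 6 were lower and 1 was higher, with a median log2 ratio of -0.04. Grik5, a high-affinity kainate subunit, was at 11.3 and 8.69 FPKM (-0.35), and Grik4 at 9.78 and 10.4 FPKM (0.08). Of the 8 metabotropic receptor genes, which signal through G proteins, 0 were past 1.5-fold, 6 were lower and 2 were higher (median -0.11). The lowest was Grm4, a presynaptic receptor, at 9.24 and 5.97 FPKM (-0.56), and the highest Grm3, a receptor that astrocytes also carry, at 36.6 and 47.4 FPKM (0.36).

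Genes that act on AMPA receptors were mostly lower in the deposited FPKM as well. All 12 auxiliary subunit genes, whose products ride with the channel and set its delivery and kinetics, were lower, with a median of -0.22, and 1 was past 1.5-fold. That gene was Cacng5, at 7.58 and 2.46 FPKM (-1.31), from 90 and 23 fragments. Cnih3 was nearest to its earlier level, at 11.3 and 10.6 FPKM (-0.08), and 3 of the others were Cnih2 at 62.5 and 53.97 FPKM, Cacng7 at 41.0 and 37.0 FPKM and Cacng8, the partner of hippocampal receptors, at 14.9 and 12.7 FPKM. Of the 3 pentraxin genes, whose products gather AMPA receptors at the synapse, Nptxr was at 50.7 and 34.0 FPKM (-0.56) and Nptx1 at 12.8 and 13.5 FPKM (0.07), with a list median of -0.17 and 0 past 1.5-fold. Neto1 and Neto2, partners of kainate and NMDA receptors, were at 7.99 and 5.48 FPKM (-0.47) and at 33.3 and 29.6 FPKM (-0.17), with a median of -0.32 and 0 past 1.5-fold.

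Of the 19 genes of postsynaptic scaffolds and receptor trafficking, 16 were lower and 3 higher (median -0.20). Dlg4, which encodes PSD-95, the scaffold that binds GluN2 tails, was at 100.9 and 94.3 FPKM (-0.10). The highest were Dlgap2 at 2.43 and 2.79 FPKM (0.15) and Grip1, which anchors GluA2 and GluA3, at 8.34 and 9.32 FPKM (0.15). The 3 editing enzyme genes had a median of 0.05 with 0 past 1.5-fold. Adarb1, which edits the GluA2 pore site, was at 89.4 and 84.3 FPKM (-0.08), and Adarb2 at 12.9 and 15.1 FPKM (0.22). Of the 6 genes that supply or clear the NMDA receptor co-agonists glycine and D-serine, 3 were lower and 3 higher (median -0.04, and 0.0029 over the 5 with a mean FPKM of at least 1, 0 past 1.5-fold), among them the serine racemase gene Srr at 22.2 and 19.5 FPKM (-0.18), Slc6a5 at 0.442 and 0.208 FPKM (-0.26) and Dao at 0.735 and 1.47 FPKM (0.51).

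**Figure D5:**
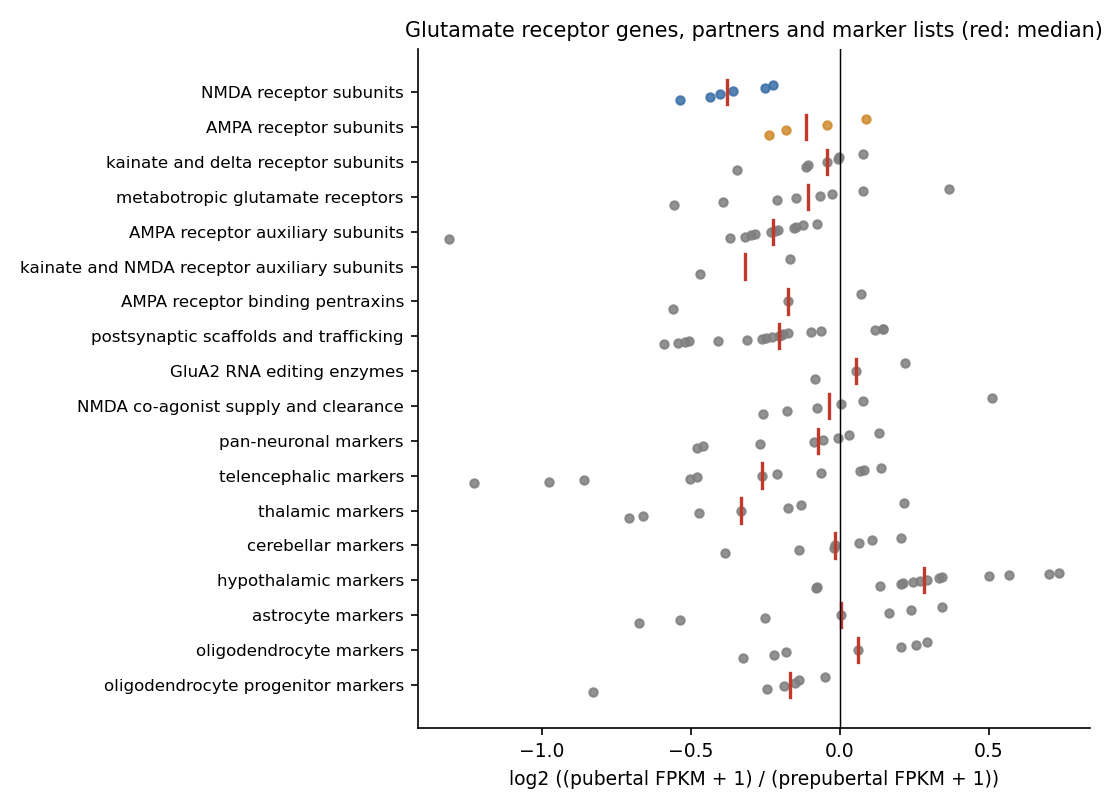
Each point is a gene, placed by its log2 ratio of FPKM + 1 (horizontal axis) in the row of its list, and red bars give list medians. In the deposited FPKM the NMDA row (blue) lies left of 0 as a whole (3 of 6 after scaling to Actb). The row of AMPA receptor auxiliary subunits reaches furthest left, to -1.31, and the telencephalic row reaches -1.23. The hypothalamic row lies mostly right of 0, with a median of 0.28.

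Markers of regions and cells next to or within the dissected tissue also differed between the libraries. The hypothalamic label held, as Pmch, Oxt, Avp and Hcrt had 1675, 411, 254 and 196 FPKM before puberty. Of the 14 hypothalamic markers, 12 were higher and 2 lower at puberty (median 0.28), with Oxt at 686 FPKM (0.74) and Pmch at 2723 FPKM (0.70) past 1.5-fold, and the summed level of the list went from 2858 to 4299 FPKM. Of the 11 telencephalic markers analysed, 8 were lower and 3 higher, and the summed level went from 114.5 to 62.7 FPKM. Their median was -0.26 over all 11, -0.68 over the 6 with a mean FPKM of at least 1, and -0.71 over all 11 with a pseudocount of 0.1 in place of 1. Camk2a, the kinase of forebrain excitatory synapses that binds GluN2B, was at 59.6 and 24.8 FPKM (-1.23). Slc17a7, the vesicular glutamate transporter of cortical neurons, was at 26.2 and 12.8 FPKM (-0.98), and Neurod6 at 5.08 and 2.36 FPKM (-0.86). These 3 were past 1.5-fold. Bcl11b was at 2.29 and 1.36 FPKM, while Emx1, Emx2, Tbr1 and Fezf2 stayed below 1 FPKM in both libraries and Lmo3 was at 17.5 and 18.5 FPKM. NMDA receptor genes are also highly expressed in the cortex and hippocampus. The part of these markers in the ratios of the receptor genes was not tested.

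Of the 7 thalamic markers, 6 were lower and 1 higher (median -0.33), with Gbx2 at 4.29 and 2.24 FPKM (-0.71) and Tcf7l2 at 19.9 and 12.2 FPKM (-0.66) past 1.5-fold and Calb2 at 323 and 374 FPKM (0.21), and the sum went from 705 to 699.7 FPKM. Of the 7 cerebellar markers, 4 were lower and 3 higher (median -0.02, and -0.08 over the 4 with a mean FPKM of at least 1). Gabra6, the marker of the granule cells that carry much Grin2c, was at 0.0754 and 0.0642 FPKM, from 3 and 2 fragments, and Barhl1 (0.248 and 0.346 FPKM) and Cbln3 (0 and 0.0465 FPKM) were near 0 too. The sum of the list was 103 and 102 FPKM, and Zic1 was at 25.02 and 18.9 FPKM (-0.39) and Pvalb at 38.7 and 44.8 FPKM (0.21). The 8 pan-neuronal markers had a median of -0.07, with 6 lower, 2 higher and 0 past 1.5-fold, from Rbfox3 (-0.48) to Map2 (0.13), and their sum went from 2802 to 2668 FPKM. When the libraries were scaled to these markers, the median of the NMDA receptor genes was -0.31 and that of the AMPA receptor genes -0.04. In bulk tissue, fewer cells of a type and less RNA per cell cannot be told apart.

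Among glial lists, astrocyte markers had a median of 0.00 (3 lower, 4 higher), with the gap junction gene Gja1 at 106 and 66.3 FPKM (-0.67) past 1.5-fold and Aldh1l1 at 16.9 and 21.6 FPKM (0.34), and a sum of 2323 and 2366 FPKM. The 7 oligodendrocyte markers had a median of 0.06 (3 lower, 4 higher), from Mag (-0.33) to Mobp (0.29), with 0 past 1.5-fold and a sum of 12328 and 13417 FPKM. The 6 markers of oligodendrocyte progenitors, cells that carry AMPA and NMDA receptors themselves, were all lower, with a median of -0.17, from Gpr17 at 38.2 and 21.1 FPKM (-0.83), past 1.5-fold, to Sox10 at 15.1 and 14.6 FPKM (-0.05), and their sum was 182 and 149 FPKM. The part of these markers in the ratios of the receptor genes was not tested either.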

How the data were processed

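Hypothalamic RNA was depleted of ribosomal RNA and sequenced from strand-specific paired-end libraries. Reads were mapped by the authors with TopHat and transcripts built with Scripture and Cufflinks. They deposited FPKM per transcript from Cuffdiff 2.1.1, and the submitters' processing notes name the genome build Rnor_5.0. Gene names and lengths came from the deposited comparison table, which also holds the authors' log2 ratios, p-values and q-values, none of which were used. FPKM differed between the tables for 10 mRNA transcripts, of which 0 belong to the receptor genes.

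FPKM were summed per gene, and ratios are log2((pubertal + 1)/(prepubertal + 1)). The intervals of fragment ratios are Clopper-Pearson intervals and those of levels exact Poisson intervals, at 95%. Shares, ratios between genes and differences between levels have propagated counting errors, with approximate intervals. The fragment step was fitted as a constant over (length - 258 nt) in the prepubertal and (length - 252 nt) in the pubertal library, from transcripts of single-transcript genes, and was tested on simulated data. Without replicates no test was run. The deposited lncRNA tables were not used. The receptor genes and gene lists were chosen by name, by a rule that uses no measured value, but with earlier results of these data known. Named were all receptor genes and, from each other list, genes past 1.5-fold with a mean FPKM of at least 1 and the largest rise and fall, while any telencephalic marker could be named. Dlg4, Grip1, Cnih2, Cacng7, Cacng8, Srr, Hcrt, Gabra6, Barhl1 and Cbln3 were named in addition, after their values were seen. Single values of 3 genes of these lists are not reported here. Alternatives were a pseudocount of 0.1, scalings to the median ratio, upper quartile, Actb and pan-neuronal markers, the transcript with the highest FPKM, the comparison table, 10 length classes, a smaller and a larger fold, and other filters. The background of genes of like length, the counting intervals and the comparison of neighbouring levels were added after the data were examined. Intervals came from scipy 1.17.1, tables from pandas 2.3.3 on numpy 2.4.6, and plots from matplotlib 3.10.9, under Python 3.11.15.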

Additional observations from a re-analysis of the deposited data

How the results depend on the processing

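The lower level of the NMDA relative to the AMPA receptor genes had the same direction under all settings tried, with a difference of medians between -0.34 and -0.27 on the log2 scale. A scaling moves both medians almost alike, and the comparison table held the same FPKM for these genes, so neither could reverse it. Among the settings that could, the difference was -0.29 with a pseudocount of 0.1, -0.34 with the transcript of highest FPKM and -0.27 after centring by length. Scaling to equal Actb, by a factor of 1.32 on the pubertal library, left 3 of 10 genes lower in place of 9 and turned the median of the 10 genes to 0.11, as it raised the median of all genes to 0.36. Grin2b, Grin2c, Grin2d, Gria1, Gria2 and Gria3 then stood at 0.032, 0.12, 0.091, 0.22, 0.36 and 0.15. Gria2 was also above 0 when scaled to pan-neuronal markers (0.028), when its transcript with the highest FPKM was taken (0.13) and after centring by length (0.080), which leaves 8 of 10 genes lower under each. With the threshold at 25% in place of 1.5-fold, 4 genes were past it in place of 0. With the highest transcript alone, the share of Gria1 differed by -3.18 points and that of Gria2 by 2.99 points. A further 9 single-gene ratios moved beyond counting error with the same direction, under scaling to Actb or pan-neuronal markers or centring by length. Of the 16 related lists, the co-agonist genes had a median of 0.0029 among genes with a mean FPKM of at least 1, in place of -0.038, the telencephalic median of -0.26 became -0.68 among these genes and -0.71 with a pseudocount of 0.1, the cerebellar median of -0.015 became -0.078 among them, the astrocyte median of 0.0037 became 0.0093 with scaling to the median ratio, and all lists but the co-agonist genes kept the direction of their median with a pseudocount of 0.1, with scaling to the median ratio and among genes with a mean FPKM of at least 1, and were not recomputed under the other scalings. With 1 library per stage no replicate could be left out. Among the receptor genes, counting error was widest for Grin2d.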
